A study of Rattus norvegicus with 2 samples.

Results

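A set of 10 genes that mark heat production in brown fat was followed through fetal rat skin at 2 stages. They are Ucp1, Cidea, Ppargc1a, Prdm16, Dio2, Elovl3, Cox7a1, Cpt1b, Adrb3 and Zic1. They were chosen as a set with results of these arrays already known, so their values are a description and no test supports them. Members were found by the gene name of each array row, ignoring a trailing mark for predicted genes, which gave 8 of the 10 listed genes, against 18344 named genes on the array. Prdm16 and Cox7a1 matched no row by this rule and were not analysed here. The 8 genes were read by 11 probes on 20 spots per array.

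The RNA came from the skin of Sprague Dawley rat fetuses, with no treatment and no named mutation in either stage. The E16 pool (day 16.5) joined 4 samples and the E19 pool (day 18.5) joined 3 samples, and the labels give no body site. Both pools were hybridised together on 2 arrays with the dyes exchanged, so there was 1 pool per stage and no replicate check of any stage difference. Values ± SD below are means of the 2 arrays, and the SD is technical spread that holds nothing of the variation between animals.

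Brown fat burns fatty acids in its mitochondria and releases the energy as heat instead of storing it as ATP. Cold makes sympathetic nerves release noradrenaline, which acts on the beta-adrenergic receptors of the fat cell, raises cyclic AMP and frees fatty acids from lipid droplets. The uncoupling protein Ucp1 then lets protons leak back across the inner mitochondrial membrane. In rodents the main brown fat depots form before birth beneath the skin between the shoulder blades, from cells related to skeletal muscle precursors.

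Of the 8 genes on the array, 6 were well above background. Ucp1, Cidea and Cpt1b, which act in the mitochondrion and at the lipid droplet, were between 5.16-fold and 12.7-fold higher in E19. The receptor gene Adrb3 was 1.68-fold higher in E19, with a size that depended strongly on the processing. Zic1 was 1.63-fold higher in E16, and the probes of Dio2 pointed in different directions. The coactivator gene Ppargc1a and the elongase gene Elovl3 were not well above background in either pool. In this bulk tissue, fewer cells of a type and less RNA per cell cannot be told apart.

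The promoters of Ucp1, Cidea and Ppargc1a are shown because the first pair were both far higher in E19, while Ppargc1a, a coactivator of Ucp1, was not well above background. Each runs 5′ to 3′ on the gene's strand from 250 bases before to 50 bases after the transcription start, taken from RefSeq on GRCr8. Capitals mark matches to the searched motifs on either strand. These were the nuclear receptor half-site AGGTCA, the cyclic AMP response element TGACGTCA and its half-site TGACG, the TATA box TATAAA and the early B-cell factor core CCCNNGGG. The half-site TGACG lies inside the full element, so each full element also counts as a half-site match.
Ucp1, chr19:41721372-41721671, minus strand: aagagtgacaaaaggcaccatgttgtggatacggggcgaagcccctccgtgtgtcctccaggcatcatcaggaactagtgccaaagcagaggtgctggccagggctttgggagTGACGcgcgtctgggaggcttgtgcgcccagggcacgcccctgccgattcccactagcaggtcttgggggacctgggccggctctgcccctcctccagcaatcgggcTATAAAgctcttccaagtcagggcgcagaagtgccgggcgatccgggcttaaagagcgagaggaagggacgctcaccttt
Cidea, chr18:63164567-63164866, plus strand: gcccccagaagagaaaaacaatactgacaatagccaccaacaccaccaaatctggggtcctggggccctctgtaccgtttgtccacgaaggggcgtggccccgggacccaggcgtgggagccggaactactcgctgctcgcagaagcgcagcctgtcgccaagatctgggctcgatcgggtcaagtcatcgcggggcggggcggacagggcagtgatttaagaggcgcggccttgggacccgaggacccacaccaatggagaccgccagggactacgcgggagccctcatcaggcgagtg
Ppargc1a, chr14:63634058-63634357, plus strand: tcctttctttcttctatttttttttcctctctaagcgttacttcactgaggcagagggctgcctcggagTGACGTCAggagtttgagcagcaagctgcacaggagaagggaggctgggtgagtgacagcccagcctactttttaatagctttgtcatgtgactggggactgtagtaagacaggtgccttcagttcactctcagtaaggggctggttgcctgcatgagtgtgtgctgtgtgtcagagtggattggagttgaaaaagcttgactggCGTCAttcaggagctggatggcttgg

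In the Ucp1 promoter a TATA box began at position -30 and a cyclic AMP half-site at position -137. The Ppargc1a promoter held a full cyclic AMP response element beginning at position -181 and a further half-site at position 25. No searched motif was in the Cidea window, which says only that these letters are not there. A TATA box was found in 14.2% of all 33469 promoters of this length, a cyclic AMP half-site in 21.2%, the full element in 1.8%, the nuclear receptor half-site in 16.2% and the early B-cell factor core in 12.4%. The table held promoters of 7 of the 10 listed genes. Among these 7, a cyclic AMP half-site was in 2, a TATA box in 2, the full element in 1, the early B-cell factor core in 1 and the nuclear receptor half-site in 0. The arrays do not measure factor binding, so these matches are a description of the sequence.

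Ucp1, the uncoupling protein that defines brown fat, was the most heavily sampled member, because its single probe was printed on 10 spots of each array. On the array with E19 in Cy5, the uncorrected E19 intensity was 18380 at the lowest spot, 21410 at the median and 23860 at the highest, and the E16 intensity was 548, 603 and 691. On the array with E19 in Cy3, the E19 intensity was 6715, 7826 and 8576, and the E16 intensity was 2031, 2507 and 2802. The local background lay between 32.5 and 75 in every channel, so the E16 pool was also far above background. In each channel pair the E19 and E16 spots did not overlap. The first set leaves out 1 spot that the scanner software marked as an outlier.

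After normalisation the Ucp1 log2 ratio of E19 over E16 was 3.72 at the lowest, 3.95 at the median and 4.04 at the highest of 9 spots with E19 in Cy5. With E19 in Cy3 it was 3.39, 3.45 and 3.52 over 10 spots. The SD over spots was 0.12 and 0.04, while the array means of 3.88 and 3.45 differed by 0.42, so the spread between arrays was larger than that between spots of 1 array. The mean of the arrays was 3.66 ± 0.30 (SD, 2 arrays), a 12.7-fold difference that placed Ucp1 at rank 5 of 14788 detected genes. The log2 level, a normalised intensity comparable only within a probe, was 13.77 and 13.82 in E19 and 9.90 and 10.37 in E16.

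**Figure D1:**
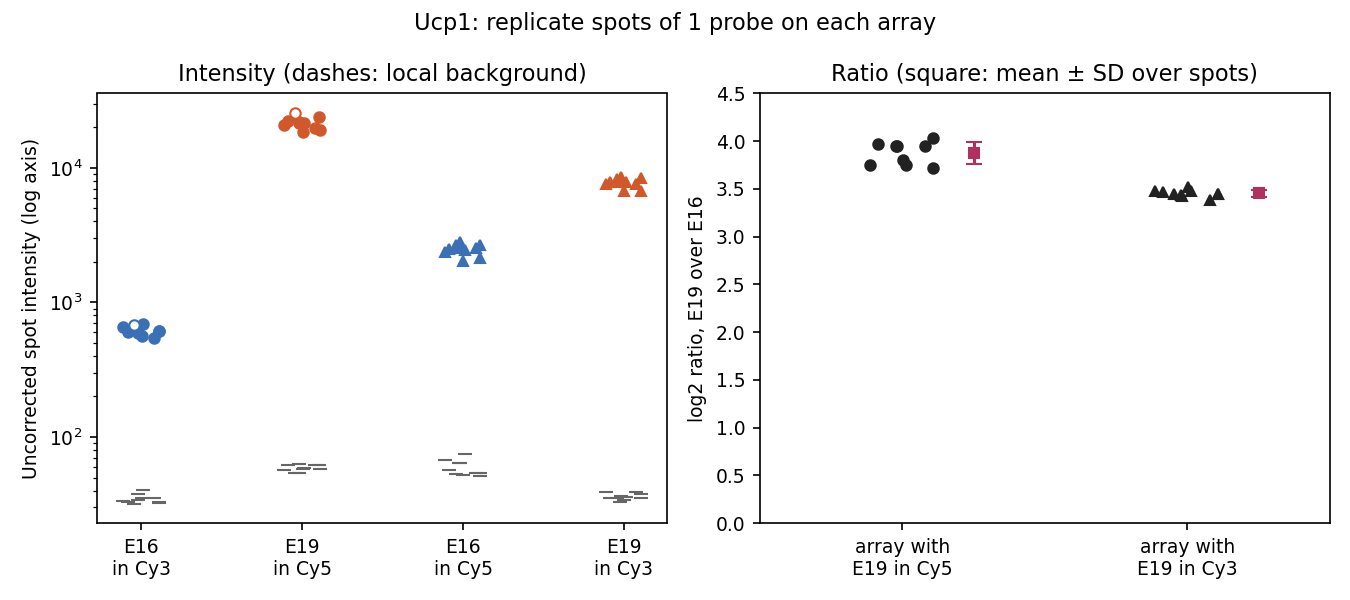
Uncorrected Ucp1 spot intensity on a log axis (left) and log2 ratio of E19 over E16 per spot (right) on both arrays. Blue is E16, orange is E19, circles are the array with E19 in Cy5, triangles the array with E19 in Cy3, open symbols the spot left out as an outlier, and grey dashes the local background. The E19 spots lie above the E16 spots of the same array, and the ratios lie between 3.39 and 4.04.

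Cidea encodes a lipid droplet protein abundant in brown fat. Its level was 14.86 and 14.95 in E19, and 10.95 and 11.73 in E16, the first of each pair from the array with E19 in Cy5. The E19 values were close to each other, and the E16 values differed by more, without reaching the E19 range. The ratio was 3.91 when E19 carried Cy5 and 3.22 when it carried Cy3, a mean of 3.57 ± 0.49, or 11.8-fold, at rank 7.

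Cpt1b encodes the carnitine palmitoyltransferase that passes long-chain fatty acids into mitochondria, the form used by muscle and brown fat. Its brighter probe had levels of 14.91 and 15.18 in E19 and of 12.49 and 12.87 in E16. The ratio was 2.42 and 2.31, a mean of 2.37 ± 0.08, or 5.16-fold, at rank 47. The dimmer probe had levels of 8.32 and 8.33 in E19 and of 7.27 and 7.12 in E16, and a ratio of 1.13 ± 0.12. Both probes were higher in E19 on both arrays. The size for the dimmer probe was 1.53 without the offset of 50 that the background correction adds, which draws ratios of dim probes towards 0, and 2.02 in Feature Extraction's own log ratios.

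Ucp1, Cidea and Cpt1b were the 3 members that passed the size rule used here in place of a test, a difference of 2-fold or more in the same direction on each array, towards E19. Towards E16 the count was 0. Over all 14788 detected genes, 4.15% passed the rule towards E19 and 3.75% towards E16, while 0.0203% passed 2-fold on each array in favour of 1 dye rather than 1 pool. Because the set was chosen on this contrast, nothing is read from the members' share. With the ratios centred on the spike-in RNAs, 389 genes passed the rule towards E19 and 810 towards E16, against 613 and 554 here.

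Adrb3, the beta3-adrenergic receptor through which noradrenaline drives brown fat, was dim. Its level was 7.45 and 7.19 in E19 and 6.56 and 6.59 in E16. The E19 pool was well above background on both arrays and the E16 pool on 1 of 2. The E19 values were above the E16 values on both arrays. The ratio was 0.89 and 0.60, a mean of 0.74 ± 0.21, short of 2-fold. It became 1.42 with an offset of 0 and 2.36 ± 0.82 in Feature Extraction's log ratios, both past the 2-fold rule. The authors' deposited table had 2.18, past 2-fold on a single combined ratio. With these offsets and log ratios Adrb3 was above 0 on each array, but the size could not be fixed at this signal.

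Ppargc1a, the coactivator that raises Ucp1 and mitochondrial genes in cold, was at levels of 6.54 and 6.45 in E19 and 6.39 and 6.32 in E16. Elovl3, an elongase of very long chain fatty acids induced by cold in brown fat and also known from skin sebaceous glands, was at 6.25 and 6.20 in E19 and 6.23 and 6.21 in E16. Neither was well above background in any channel. The lowest levels called well above background lay between 5.92 and 6.55, so a difference in these genes was not detectable at this signal. No fold is given for them.

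Dio2 encodes the deiodinase that makes active thyroid hormone inside the brown fat cell, and its 3 probes differed. The brightest had levels of 10.64 and 10.76 in E19 and 11.21 and 11.12 in E16, with a ratio of -0.46 ± 0.14. The second had levels of 8.43 and 8.41 in E19 and 8.96 and 8.93 in E16. Its ratio was -0.52 with an SD under 0.01. Both were higher in E16 on both arrays, with no overlap between pools.

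The third Dio2 probe was well above background in E19 on both arrays (7.50 and 7.19) and in E16 on neither (6.68 and 6.48). Its ratio was 0.76 ± 0.08, or 1.69-fold higher in E19, resting on an E16 level not well above background. The ratio became 1.40 with an offset of 0 and 2.27 in Feature Extraction's log ratios, so its size is not fixed. In the coordinates the files give, this probe lies 3503 bases from the second, which lies 551 bases from the brightest. Averaged over the 3 probes, with the third taken at its uncertain E16 level, the ratio was -0.07, and the authors' deposited table has -0.14. No direction for the gene as a whole is given. The files place all 3 probes on an unplaced piece of chromosome 4 in a build they do not name, while RefSeq has Dio2 on chromosome 6 of GRCr8. For the other 7 members the chromosomes matched.

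Zic1 encodes a transcription factor of the dorsal neural tube and somites that is also used to tell the classical brown fat depot from beige fat. Its level was 8.11 and 8.29 in E19 and 8.89 and 8.92 in E16. The E16 values were higher on both arrays. The ratio was -0.78 and -0.64, a mean of -0.71 ± 0.10, which is 1.63-fold higher in E16 and inside the size rule. In Feature Extraction's log ratios it was -0.82 ± 0.12.

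**Figure D2:**
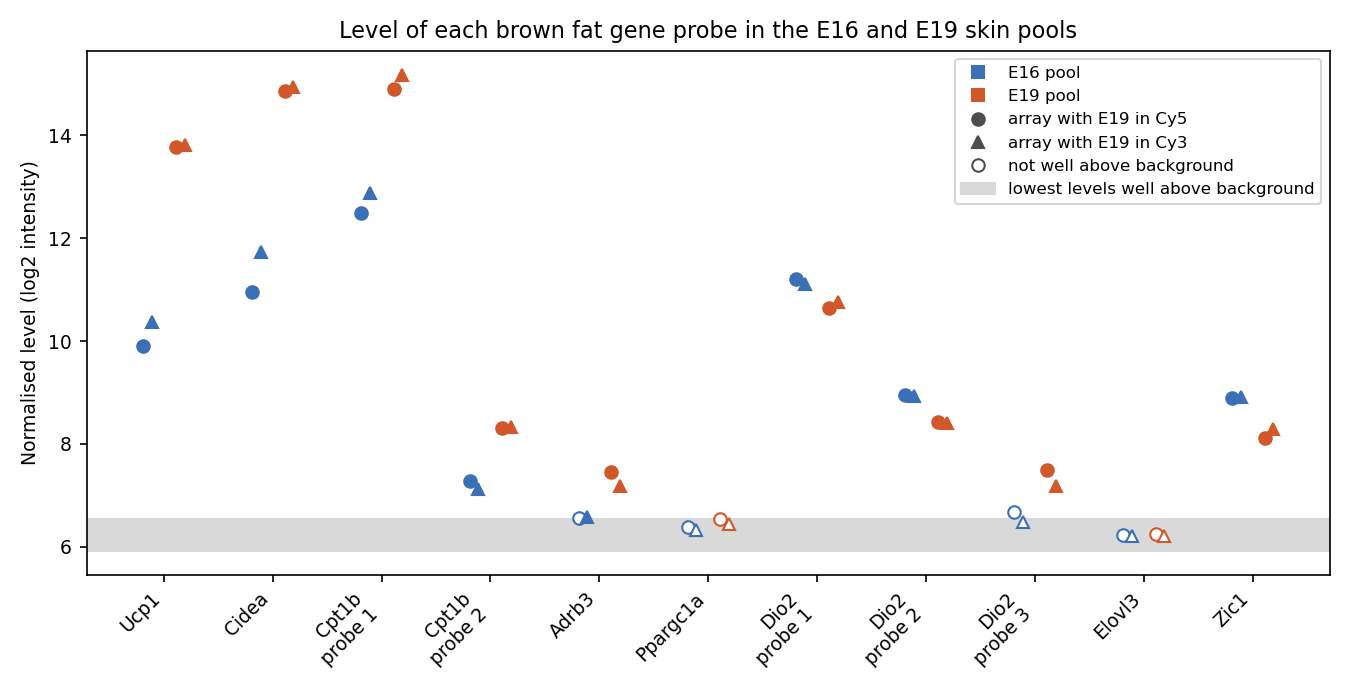
Normalised log2 level of each probe in the E16 pool (blue) and the E19 pool (orange), with circles for the array with E19 in Cy5 and triangles for the array with E19 in Cy3. Open symbols were not well above background, the grey band spans the lowest levels that were, and levels compare only within a probe. Ucp1, Cidea and the brighter Cpt1b probe are higher in E19, 2 Dio2 probes and Zic1 are higher in E16, and Ppargc1a and Elovl3 lie at background.

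**Figure D3:**
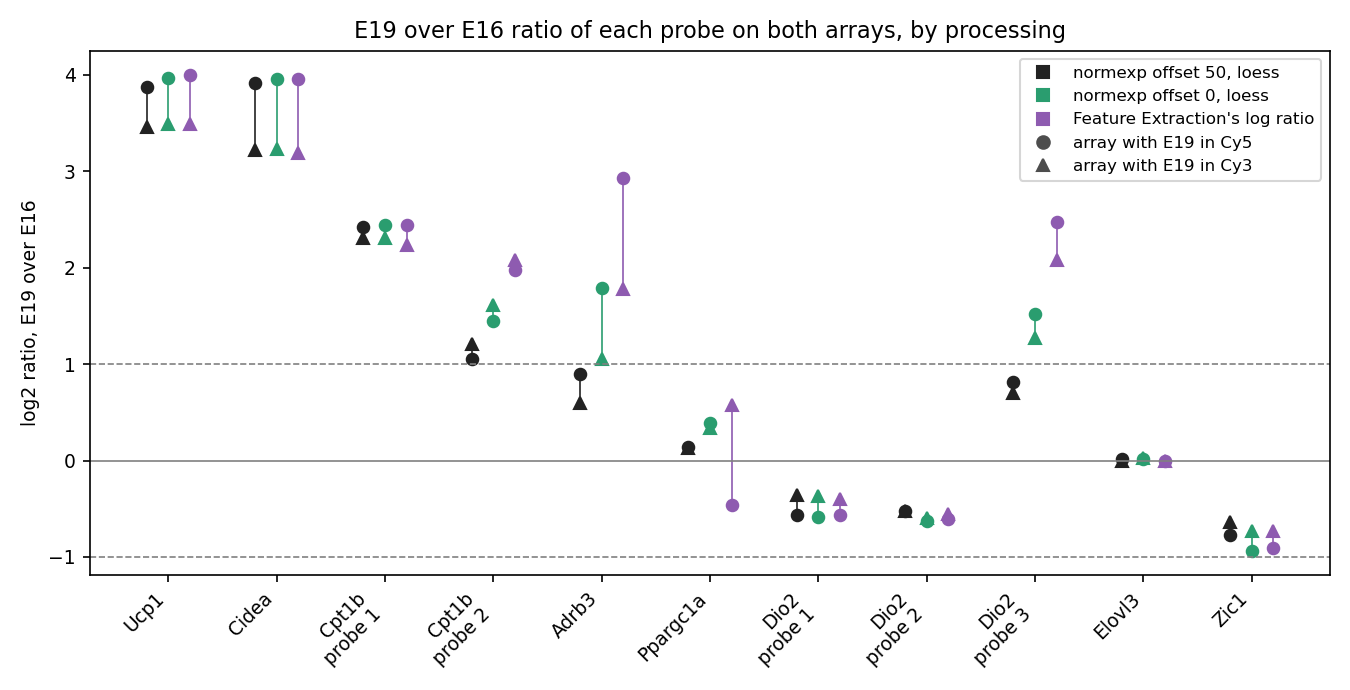
Log2 ratio of E19 over E16 for each probe on both arrays under 3 ways of processing, with dashed lines at the 2-fold rule, circles for E19 labelled with Cy5 and triangles for Cy3. The bright probes of Ucp1, Cidea and Cpt1b keep their size, while Adrb3 moves from 0.74 to 2.36 with the processing. The third Dio2 probe was not well above background in E16, so its plotted ratios rest on an uncertain E16 level.

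Of keratinocyte and fibroblast genes, 14 of 14 on the array, among them Krt5, Krt14, Col1a1 and Dcn, were well above background in both pools. So were 14063 of all 14788 detected genes, so this does not single out skin. General fat cell genes moved in the same direction as the thermogenic genes, with 18 of 28 detected past the rule towards E19, 0 towards E16 and a median of 1.81, against 4.15% and a median of 0.02 over all detected genes. Of their defining markers, Pparg, the master regulator of fat cells, was at 2.18 with an SD under 0.01, and the droplet coat gene Plin1 at 1.79 ± 0.01. The list did not move as a whole, since 5 of the 28 were below 0. Among these were the fatty acid synthesis genes Acaca (-0.35 ± 0.28), Acly (-0.20 ± 0.24) and Fasn (-0.18 ± 0.31). Lep was not well above background in either pool. The summed linear level of these 28 genes was between 287204 and 303356 in E19 and between 182148 and 203600 in E16. Such a sum, here and for the lists below, adds different probes and weights the brightest most. It is not a measure of the amount of a cell type. Whether the thermogenic genes differed beyond the number of fat cells was not tested. The direction was shared by genes of liver and plasma proteins, with 9 of 13 past the rule towards E19, 1 towards E16 and a median of 1.93. Alb, the main plasma protein, was 18.1-fold higher in E19 and Ttr was the 1 gene towards E16 (-2.01 ± 0.51). The summed linear level of these 13 genes was between 16806 and 17820 in E19 and between 5253 and 5518 in E16, and their part in the thermogenic values was not tested.

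The genes nearest to the members, by distance over the log2 ratios of both arrays of the same pools, were also in part fat genes. Nearest to Ucp1 was the hormone gene Retn (3.54 ± 0.26, distance 0.18), then Cidea (0.24), the carbonic anhydrase Car3 (0.34) and the matrix protease genes Mmp13 (0.47) and Mmp3 (0.59). Nearest to Cidea were Retn (0.23), Ucp1 (0.24), Car3 (0.52), Pck1 (0.56) and Mmp3 (0.56). Nearest to Cpt1b were the fibrinogen chains Fgb (0.05) and Fga (0.08), RGD1561620 (0.08), the retinol binding protein gene Rbp7 (0.09) and the interferon-induced gene Isg15 (0.16). With 2 arrays of the same pools, likeness here means only a similar ratio.

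Relatives of the members in the same families had a median log2 ratio of 0.15, which turned to -0.07 when centred on spike-in RNAs and was 0.04 on the array with E19 in Cy5 alone. Of the uncoupling proteins, Ucp2 was at 0.26 ± 0.09 and the muscle form Ucp3, in E16 well above background on 1 of 2 arrays, at 0.92 ± 0.09, against 3.66 for Ucp1. Of the droplet proteins, Cidec was higher in E19 (2.10 ± 0.05) and Cideb was at -0.05 ± 0.06. The liver form Cpt1a was at 0.81 ± 0.10 and the neuronal form Cpt1c at -0.66 ± 0.16. The receptor gene Adrb1 was at 0.13 ± 0.02. The coactivator Ppargc1b, unlike Ppargc1a, was well above background (0.52 ± 0.14), and Pprc1 was at -0.19 ± 0.38.

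The deiodinase Dio1, which also activates thyroid hormone, was higher in E19 (1.24 ± 0.02), and Dio3, which inactivates it and is known from fetal tissue, was 3.80-fold higher in E16 (-1.93 ± 0.26). Of the elongases, Elovl7 (1.90 ± 0.57) and Elovl4 (1.27 ± 0.30) were higher in E19. Elovl5 (0.07 ± 0.08), Elovl6 (-0.28 ± 0.24) and Elovl2 (-0.41 ± 0.08) were inside the rule. Beside these, a list of cornified epidermis and sebaceous lipid genes had 9 of 11 detected genes past the rule towards E19. With median centring in place of loess it was 3 of 11. That list is not of lipid genes alone, since it holds keratin and cornified envelope genes such as Krt10, Flg and Ivl. It also holds Elovl4 itself. Awat2 and Mc5r of the sebaceous gland were not well above background. Cox7a2 (0.18 ± 0.28), Cox7a2l (0.17 ± 0.31) and Mecom (-0.20 ± 0.22), a relative of Prdm16, were inside the rule. In all, 4 of 22 detected relatives passed the rule towards E19 and 3 towards E16. Zic2 and Zic5 were not well above background.

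Of the relatives of Zic1 (-0.71 ± 0.10), Zic4 was at -2.86 ± 0.03, past the rule towards E16. The neural list moved the same way, with 13 of 16 genes past the rule towards E16, 0 towards E19 and a median of -3.01. Fabp7 (-4.87 ± 0.30), Chgb (-4.69 ± 0.02) and Stmn2 (-4.14 ± 0.35) had its largest ratios. Its summed linear level was between 9854 and 11608 in E19 and between 90209 and 94221 in E16, and Neurod1 and Syt1 were not well above background in E19. The part of neural RNA in the Zic1 value was not tested. Somite genes had a median of -0.49, with Myf5 (-1.65 ± 0.25) as 1 of 8 past the rule, and Meox1 (-0.72 ± 0.10) and Meox2 (-0.59 ± 0.43) next.

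Other genes known for brown fat enrichment gave a mixed picture, with 3 of 24 detected genes passing towards E19, 3 towards E16 and a median of 0.36. Slc36a2, an amino acid transporter at the brown fat cell surface (2.06 ± 0.19), the mitochondrial protein gene Chchd10 (1.97 ± 0.15) and Cpt2, the partner enzyme of Cpt1b (1.11 ± 0.05), were higher in E19. Cited1 (-1.34 ± 0.23), the fatty acid transporter Slc27a2 (-1.26 ± 0.27) and the heart and muscle fatty acid binding protein gene Fabp3 (-1.24 ± 0.20) were higher in E16. The brown fat determination factor Ebf2 was at 0.04 ± 0.18, Otop1 at 0.30 ± 0.14 and the cytochrome oxidase isoform Cox8b at 0.00 with an SD of 0.15. In Feature Extraction's log ratios 6 of the 24 passed the rule towards E19, against 6.86% of all detected genes. Centred on spike-in RNAs, 2 of the 24 passed towards E19, against 2.63% of all detected genes, and the median of the 24 was 0.14.

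Of the adrenergic and thyroid hormone input genes, 16 of 16 detected were inside the rule, as were 13621 of all 14788 detected genes. Their median of 0.06 turned to -0.16 when centred on spike-in RNAs. The retinoid partner receptor Rxra (0.69 ± 0.19), the thyroid receptor Thrb (0.67 ± 0.24) and the adenylyl cyclase Adcy3 (0.57 ± 0.01) had the largest ratios. Gnas differed between the arrays (SD 1.25).

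Downstream, genes of the lipid droplet and lipolysis had a median of 1.63, and 11 of 17 were past the rule towards E19 and 0 towards E16. Many of these genes, among them Fabp4, Gpd1, Plin1 and Lipe, are also in the general fat cell list, so the lists are not separate observations. Fabp4, the fatty acid carrier of fat cells (4.81 ± 0.01), G0s2, an inhibitor of lipolysis (3.21 ± 0.06), and the glycerol phosphate enzyme gene Gpd1 (8.01-fold higher in E19) had the largest ratios. Lipe, the hormone-sensitive lipase, was at 1.83 ± 0.17, while the first lipase of the pathway, Pnpla2, was at 0.90 ± 0.08.

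Mitochondrial fatty acid oxidation, the step fed by Cpt1b, had a ratio above 0 for 21 of 21 genes, against 52.5% of all detected genes, and 10 passed the rule towards E19 with a median of 1.05. The 10 became 4 with median centring in place of loess. The acyl-CoA synthetase Acsl1 (1.90 ± 0.64) and the long-chain dehydrogenase Acadl (1.60 ± 0.27) were among those past the rule. The respiratory chain and citrate cycle had smaller ratios. Of 35 genes 32 were above 0, 24 when centred on spike-in RNAs, and 0 passed the rule, with a median of 0.29. Idh3a (0.80 ± 0.12) and the citrate synthase Cs (0.73 ± 0.29), both of the citrate cycle, were among the higher ratios. Factors of mitochondrial biogenesis had 0 of 13 past the rule and a median of 0.18, -0.04 when centred on spike-in RNAs. Ppargc1b, Vdac1 (0.42 ± 0.13) and Opa1 (0.38 ± 0.14) had the largest ratios, and Tfam, which maintains mitochondrial DNA, was at -0.36 ± 0.07. Beside both counts of 0, the share of all detected genes past the rule was 4.15% towards E19 and 3.75% towards E16.

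White fat leaning genes had a median of -0.37, which was -0.84 with an offset of 0 and -1.10 both in Feature Extraction's log ratios and in the authors' deposited table. Retn was the only one of 7 detected past the rule towards E19, while Nnat (-1.07 ± 0.36), Hoxc10 and Hoxc8 (-1.03 ± 0.14) had mean ratios towards E16 but missed the rule on 1 array each. That count of 0 towards E16 depended on the processing. It was 3 when centred on spike-in RNAs and 2 in Feature Extraction's log ratios. On the single combined ratio of the authors' deposited table, which need not pass on each array, 4 were past 2-fold towards E16 and 2 towards E19. Hoxc10 was not well above background in E19, so its ratio of -1.05 ± 0.09 rests on an uncertain E19 level. The same holds for Wt1, whose ratio of -0.37 ± 0.23 is the median given for this list. Beside Cpt1b, which muscle also uses, skeletal muscle genes had a median of 0.07, or -0.14 when centred on spike-in RNAs, with 3 of 22 passing towards E19 and 3 towards E16, or 2 and 1 with median centring. Their summed linear level was between 379985 and 461458 in E19 and between 523433 and 537663 in E16. Myod1, which commits cells to muscle (-2.48 ± 0.02), Myog (-1.61 ± 0.12) and the calcium channel gene Cacna1s (-1.22 ± 0.19) were higher in E16. Ckmt2, a mitochondrial creatine kinase (2.36 ± 0.15), the perinatal myosin Myh8 (1.80 ± 0.14) and Ckm (1.17 ± 0.06) were higher in E19.

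**Figure D4:**
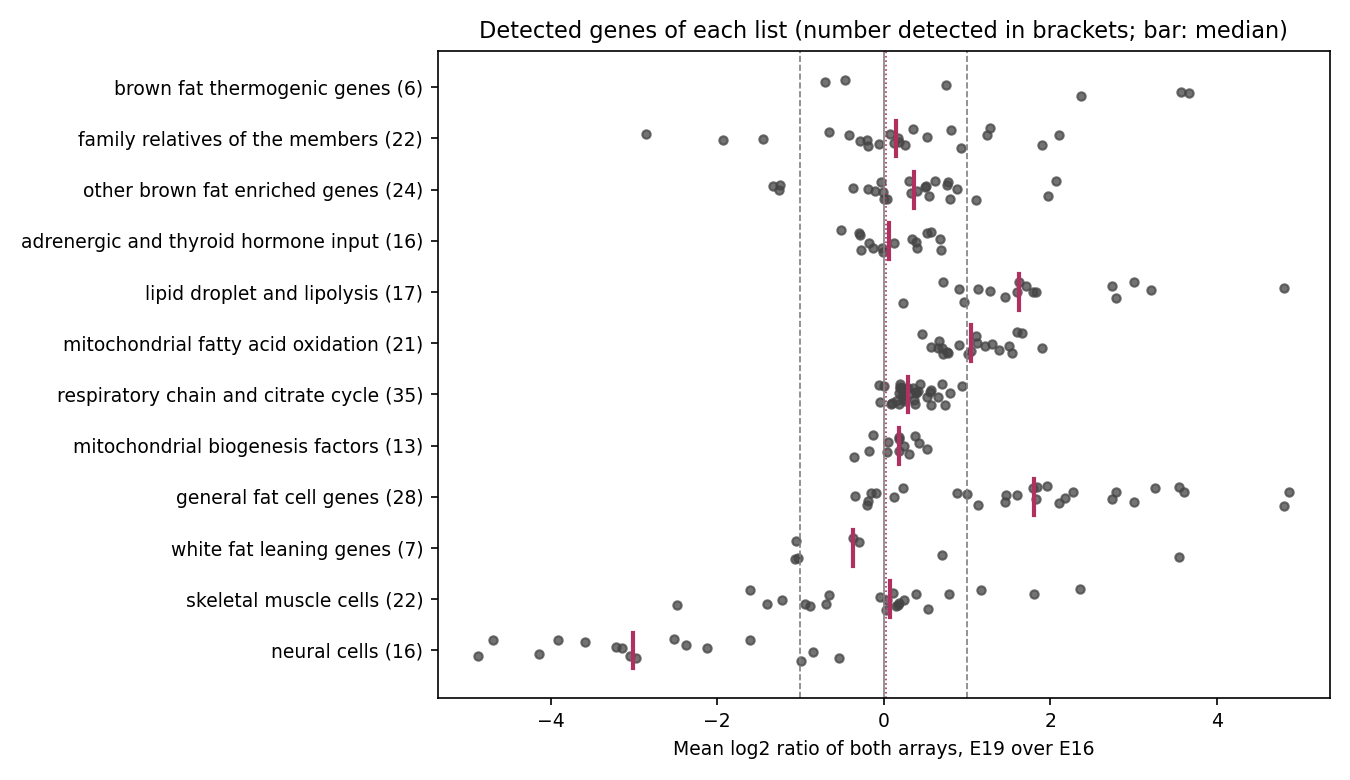
Mean log2 ratio of E19 over E16 for each detected gene of the thermogenic set and of related lists, with red bars at the medians of the related lists, dashed lines at the 2-fold rule and a dotted line at the median of all detected genes. Lipid droplet (median 1.63), fatty acid oxidation (1.05) and general fat cell genes (1.81) lie to the right, respiratory chain genes (0.29) near 0 and neural genes (-3.01) to the left.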

How the data were processed

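The scans of Agilent rat arrays with 45018 spots were quantified in Feature Extraction 9.5.1.1, per the file headers. The deposited mean intensity and median local background of each spot are uncorrected. The same program wrote, per the file headers, a log10 ratio of Cy5 over Cy3 from background-subtracted, dye-normalised intensity. A further table from the authors gave log10 ratios for the pair of arrays, read here as 1 value per sequence record. How the arrays, or several probes of a sequence, were combined is not stated in the labels or headers. The table's direction was taken as E19 over E16 because it correlated with the ratios where E19 carried Cy5 (r = 0.90). Its values are printed as log2.

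Intensities were corrected with normexp (offset 50) and normalised by loess in limma 3.58.1 (R 4.3.3), with control spots at weight 0. Outlier spots were left out and saturated spots kept. Channel levels came from Aquantile normalisation. The E19 over E16 log2 ratio was averaged over spots and then over both arrays, and the brightest detected probe stood for a gene. A probe was detected when well above background in a pool on both arrays. Later steps used Python 3.11.15 with pandas 2.3.3 and matplotlib 3.10.9. In each channel 71.5% to 74.3% of spots passed that mark. The number of arrays limits the precision.

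Of 41012 probes, 11 were named by the member rule, 10726 by accession, 5575 by symbol and 3730 by synonym through RefSeq (GRCr8), 3364 kept the file's name and 17606 had none. With 1 pool per stage no test was made. Members and lists were chosen with earlier results of these data known. Some genes are in more than 1 list, such as Cpt2 and Retn, so the lists are not independent. Named genes were all members and detected relatives, the 3 largest ratios of each other list with any gene past the rule against its direction, and the 5 genes nearest to each member past the rule. Some further genes were named after their values were seen, and some genes that the rule names are not reported here. On simulated arrays 96% of 100 probes at a log2 ratio of 1.5 and 100% of 100 at 3 were recovered. These probes were drawn from those brighter than the median, without the brightest, and no dye effect of single genes was simulated. The recovery therefore does not cover dim probes such as that of Adrb3, or genes whose arrays differ by dye.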

Additional observations from a re-analysis of the deposited data

How the results depend on the processing

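The members past the 2-fold rule towards E19 numbered 3 as reported and 3 or 4 in every alternative run, the added one being Adrb3. The share of all detected genes past it towards E19 also moved, from 4.15% as reported to 2.48% with median centring. It was 5.25% with an offset of 0, 6.86% in Feature Extraction's log ratios and 8.1% in the authors' table, runs that added Adrb3. Runs on 1 array or on the authors' table asked for 2-fold on 1 ratio only. Ucp1 (3.45 to 3.88) and Cidea (3.22 to 3.91) moved by no more than the SD of the 2 arrays. Feature Extraction's log ratios moved Adrb3 to 2.36 and Zic1 to -0.82. An offset of 0 moved them to 1.42 and -0.83, and no background correction moved Adrb3 to 0.96. Centring on spike-in RNAs, whose mean ratio was 0.22, lowered Adrb3 to 0.53, Cpt1b to 2.15, Dio2 to -0.68 and Zic1 to -0.92, and shifted the median of all genes from 0.02 to -0.20. Averaging over detected probes moved Cpt1b to 1.75 and Dio2 to -0.074. The authors' deposited table had Adrb3 at 2.18, Cpt1b at 2.17, Dio2 at -0.14 and Zic1 at -0.82. It was read with 1 value per sequence record. For Cpt1b and Dio2, which have several probes, that value is therefore not tied to the brightest probe. The cause of these moves was not tested. On single arrays, that with E19 in Cy5 first, Adrb3 was at 0.89 and 0.60 and Cpt1b at 2.42 and 2.31. In the same order Dio2 was at -0.56 and -0.36, and Zic1 at -0.78 and -0.64. No paired analysis was possible because each stage is 1 pool and no test was made.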
